A study of Homo sapiens with 12 samples.

Results

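Collagens, laminins and integrins are the main structural proteins of the extracellular matrix and the receptors that bind it, and 76 of the 25914 genes in the RNA-seq comparisons belong to these families. Members were the genes listed as protein-coding whose symbol is that of a collagen chain, a laminin chain or an integrin subunit. They comprise 40 collagens, 12 laminins and 24 integrins. Another 5 symbols of the same form (COL6A5, COL9A1, COL10A1, COL19A1 and ITGA8) were not analysed here. The 12 libraries came from RPE-1 and HCT116 cells given Nutlin-3a at 10 µM or DMSO for 24 h, with 3 libraries in each of the 4 groups. RPE-1 is a noncancerous epithelial line from human retina, immortalized with hTERT. HCT116 is an epithelial colon cancer line, here of wild-type genotype. Nutlin-3a frees p53 from MDM2, so that p53 accumulates. Each tissue was thus represented by 1 line, and a property of the tissue, of the cancer or of the line itself cannot be told apart.

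Collagens form triple helices from 3 α-chains, and the chains assemble into fibrils, into the sheet-like network of the basement membrane or into filaments along these. Laminins are heterotrimers of an α-, a β- and a γ-chain and lay down the first layer of the basement membrane. Integrins pair an α- with a β-subunit at the cell surface, bind collagen, laminin or fibronectin outside the cell and attach to actin or keratin filaments inside it.

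The values are the log2 fold change of Nutlin-3a over DMSO in each line (log2FC), its standard error (SE) and an adjusted p-value over all 25914 genes. Values of single libraries were not analysed here, and depth per library is unknown. Spread is seen only through the SE, which may be pooled over libraries and is not the spread within a single group. A gene was called at an adjusted p under 0.05. The base mean, a mean normalised count, is shared by both comparisons and averages more libraries than these 12. It is therefore the level of neither line, and markers of retina or colon could not be checked. Of the members, 71 had a base mean of at least 10, and COL23A1, COL24A1, COL25A1, ITGAL and LAMB4 lay below it. Median SEs over the members were 0.24 in RPE-1 and 0.25 in HCT116, against 0.27 and 0.26 over all genes. An SE over 0.5 was found for 24 members in RPE-1 and 21 in HCT116, and for these only large changes were detectable. CDKN1A and MDM2, established p53 targets, rose in RPE-1 by a log2FC of 3.94 and 3.95 and in HCT116 by 4.12 and 4.14. In these bulk cultures, a change in RNA per cell and a change in the share of cells that carry it cannot be told apart.

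Nutlin-3a raised members of all 3 families in both lines, and few members fell outside the integrins of HCT116. Of those integrins, 29.2% were higher and 16.7% lower, nearer the HCT116 background given below, and their median log2FC was 0.11. In RPE-1, 30 members were higher, 2 were lower and 44 were not called. The background in RPE-1 was 19.3% higher and 13.6% lower among all listed genes, and 27.2% and 18.8% among the 14592 protein-coding genes with a base mean of at least 10. In HCT116, 29 members were higher, 6 were lower and 41 were not called, against a background of 14.9% higher and 12.2% lower over all genes and 21.3% and 17.8% over the protein-coding ones. The median log2FC of the members was 0.52 in RPE-1 and 0.33 in HCT116. Over all listed genes these medians were 0.06 and 0.09.

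The families differed in their counts. Collagens had 16 members higher and 0 lower in RPE-1, and 15 higher and 2 lower in HCT116. Of the laminins, 4 rose in RPE-1 and 7 in HCT116, and none was called lower in either line. Integrins had 10 higher and 2 lower in RPE-1, and 7 higher and 4 lower in HCT116. As shares, 40% of collagens, 33.3% of laminins and 41.7% of integrins were called higher in RPE-1, and 37.5%, 58.3% and 29.2% in HCT116. Median log2FCs in RPE-1 were 0.52 for collagens, 0.50 for laminins and 0.52 for integrins, and in HCT116 they were 0.34, 0.57 and 0.11. These counts describe the families, and a difference between the families was not tested. Among members with a base mean of at least 100, the medians of collagens, laminins and integrins were 0.51, 0.59 and 0.28 in RPE-1 and 0.64, 0.69 and 0.31 in HCT116.

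**Figure D1:**
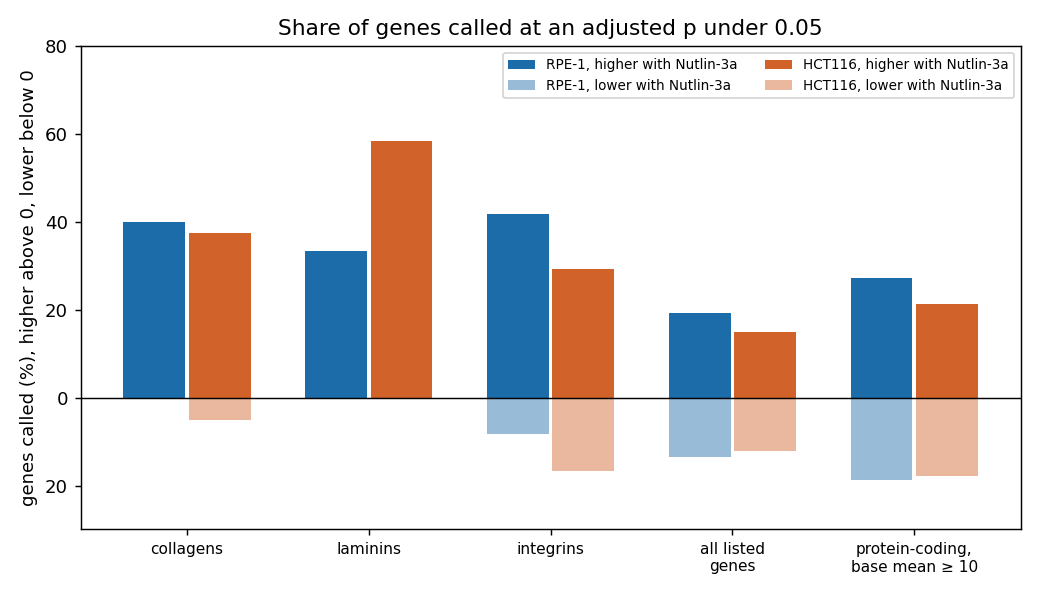
Share of genes called higher (dark bars, above 0) or lower (pale bars, below 0) with Nutlin-3a in RPE-1 (blue) and HCT116 (orange), in percent of the genes of each family and of both backgrounds. Laminins had the tallest bar, 58.3% higher in HCT116, and no laminin or RPE-1 collagen was called lower.

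The network-forming collagens, among them the collagen IV chains of the basement membrane sheet, held the largest share of calls among the collagen classes in RPE-1. Of 8 such genes, 7 rose in RPE-1 (87.5%), with a class median of 0.61. In HCT116, 4 rose (50%) and 2 fell (25%). Among protein-coding genes with a base mean of at least 10, 27.2% rose in RPE-1, and 21.3% rose and 17.8% fell in HCT116. The 6 collagen IV genes lie in 3 pairs whose members are read in opposite directions from a short shared stretch. In RefSeq the stretch holds 126 bases for COL4A1 and COL4A2, 135 bases for COL4A4 and COL4A3, and 379 bases for COL4A6 and COL4A5. In HCT116, members of the first pair rose together and those of the second fell together. The sequences of these pairs are shown because their stretches are the shorter ones. Both are given 5′ to 3′ on the plus strand of GRCh38 (hg38). The first lies at chr13:110307158-110307257 and stops where the first GENCODE exon of a COL4A2 transcript begins, while 1 longer COL4A2 transcript holds it in an intron. The other lies at chr2:227164489-227164623. Capitals mark the GC box (GGGCGG on either strand) and the CCAAT box (CCAAT on either strand).

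COL4A1/COL4A2: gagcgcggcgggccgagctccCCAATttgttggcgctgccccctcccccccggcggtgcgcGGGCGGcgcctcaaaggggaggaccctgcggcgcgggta

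COL4A4/COL4A3: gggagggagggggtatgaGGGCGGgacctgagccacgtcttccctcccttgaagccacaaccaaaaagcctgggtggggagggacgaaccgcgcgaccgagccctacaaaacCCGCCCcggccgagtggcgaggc

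The first stretch held 1 GC box, at bases 62 to 67, and 1 CCAAT box, at bases 22 to 26. The second held 2 GC boxes, at bases 19 to 24 and, on the other strand, at 113 to 118, and no CCAAT box. A GC box was found in 31.3% of 35116 RefSeq promoter windows of 100 bases and in 35.5% of those of 135 bases. A CCAAT box was found in 18.1% and 22.1%. Neither stretch held a TATA box (TATAAA) or a p53 half-site, the name of the 10-base unit that p53 binds in pairs. These matches describe letters, and binding was not measured here.

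COL4A1 (ENSG00000187498) and COL4A2 (ENSG00000134871) code for the chains found in nearly every basement membrane, and both rose in both lines. The log2FC of COL4A1 was 0.62 (SE 0.18, adjusted p = 0.00172) in RPE-1 and 1.48 (SE 0.36, adjusted p = 0.000281) in HCT116. That of COL4A2 was 0.50 (SE 0.14, adjusted p = 0.00172) and 1.70 (SE 0.49, adjusted p = 0.00299). The HCT116 values were the higher ones, but the differences between the lines of -0.85 (SE 0.40) and -1.20 (SE 0.51) were not called, with adjusted p = 0.117 and 0.0756. COL4A3 and COL4A4, chains of the mature kidney glomerular basement membrane, fell in HCT116. COL4A4 moved in opposite directions in the lines, up in RPE-1 by 0.61 (SE 0.10, adjusted p = 4.59e-08) and down in HCT116, at -0.70 (SE 0.11, adjusted p = 1.2e-09). COL4A3 fell in HCT116 to a log2FC of -0.85 (SE 0.20, adjusted p = 0.00014) and stood at 0.40 (SE 0.21, adjusted p = 0.144) in RPE-1. For both genes the lines differed, by 1.31 (SE 0.15, adjusted p = 2.27e-16) for COL4A4 and by 1.25 (SE 0.29, adjusted p = 0.000222) for COL4A3.

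COL4A5, a partner chain of COL4A3 and COL4A4 in that membrane, rose by similar amounts in both lines, at 1.35 (SE 0.08, adjusted p = 3.85e-57) in RPE-1 and 1.16 (SE 0.09, adjusted p = 8.12e-38) in HCT116. The difference of 0.19 had a 95% interval from -0.05 to 0.43. COL4A5 had the smallest adjusted p of all members in RPE-1. Its neighbour COL4A6 rose in RPE-1 (1.14, SE 0.26, adjusted p = 9.49e-05) and was not called in HCT116 (0.35, SE 0.24). The difference between the lines for COL4A6 was not called (0.79, 95% interval 0.09 to 1.49, adjusted p = 0.101). COL8A1, a short-chain network collagen, rose by 0.33 (SE 0.12) in RPE-1 and by 1.94 (SE 0.69) in HCT116. COL8A2 rose by 0.60 (SE 0.24) in RPE-1. With the median change of all genes taken out, neither of the RPE-1 values of COL8A1 and COL8A2 was called (adjusted p = 0.0782 and 0.0880).

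**Figure D2:**
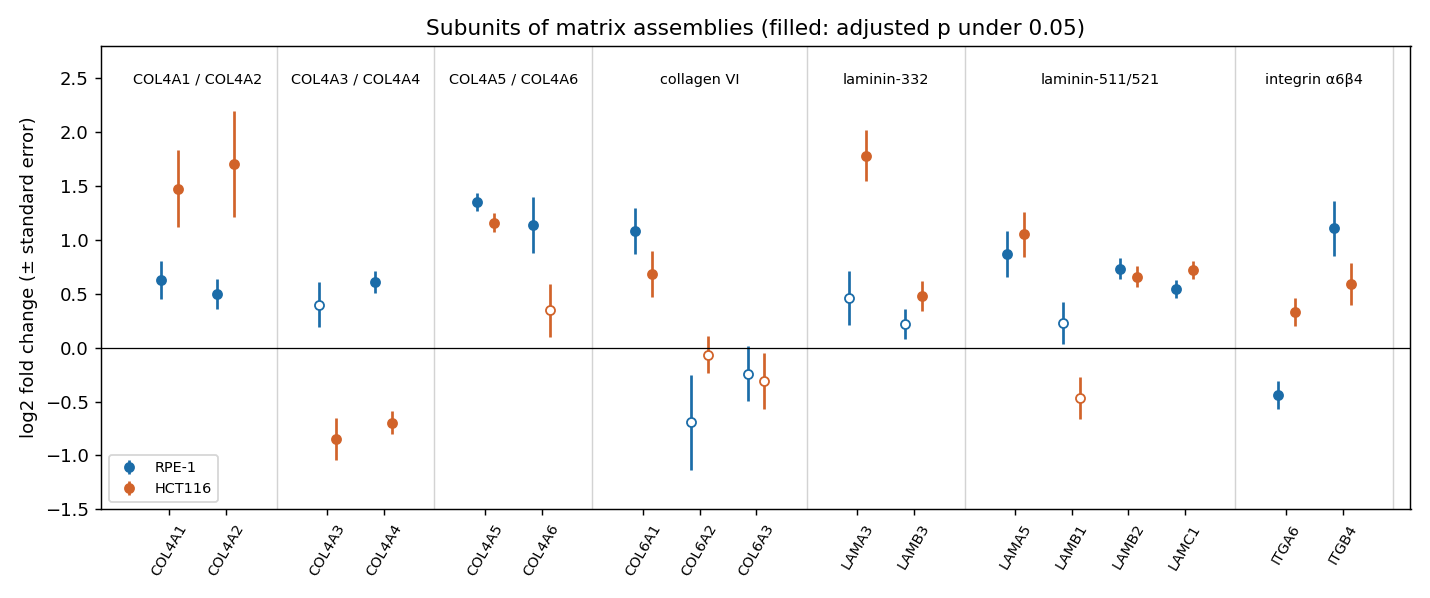
log2FC of the subunits of named matrix assemblies, with 1 SE above and below each point, in RPE-1 (blue) and HCT116 (orange). Filled points were called. COL4A3 and COL4A4 lie on opposite sides of 0 in the lines, whereas COL4A5, LAMB2 and LAMC1 lie close together.

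The largest collagen changes were in HCT116, in genes that were not called in RPE-1. COL17A1 (ENSG00000065618, chromosome 10 of GRCh38, from 104031286 to 104085880) codes for a transmembrane collagen of hemidesmosomes, the junctions that tie epithelial cells to the basement membrane. Its log2FC was 3.62 in HCT116 (SE 0.14, adjusted p = 1.83e-140), a 12.3-fold rise, and -0.21 in RPE-1 (SE 0.17, adjusted p = 0.402). The lines differed by -3.83 (SE 0.23, adjusted p = 2.45e-61), RPE-1 minus HCT116. The 250 bases before its RefSeq start are shown since COL17A1 was the 1 member, of those with a promoter window, in which a p53 half-site was found. They lie at chr10:104085881-104086130 of GRCh38 (hg38) and are given 5′ to 3′ on the minus strand, which the gene is read from. Capitals mark the half-site.

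COL17A1: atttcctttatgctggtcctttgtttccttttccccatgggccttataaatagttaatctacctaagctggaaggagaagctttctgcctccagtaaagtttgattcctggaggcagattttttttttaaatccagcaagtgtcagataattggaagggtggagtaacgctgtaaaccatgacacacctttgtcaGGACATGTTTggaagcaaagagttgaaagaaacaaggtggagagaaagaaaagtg

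The match GGACATGTTT lies 55 to 46 bases before the start and reads as a half-site on both strands. Of all promoter windows of 250 bases, 5.57% held a p53 half-site. RefSeq promoter windows of 300 bases were matched for 54 of the 76 members, and 1 of their 70 windows (1.43%) held a half-site, against 6.63% of all 35116 windows. Lack of the letters in a window says nothing of p53 binding elsewhere in a gene.

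The fibril-forming class, the collagens of tensile tissue, had 3 of 11 genes higher in RPE-1 (27.3%) and 4 in HCT116 (36.4%), and none lower. Among protein-coding genes with a base mean of at least 10, 27.2% and 21.3% were higher, so the RPE-1 share lay at this background. COL5A1 (ENSG00000130635, chromosome 9, from 134641803 to 134844843), a chain that starts and thins collagen fibrils, had the largest change of any member, a log2FC of 5.53 in HCT116 (SE 0.43, adjusted p = 9.02e-37). In RPE-1 it stood at 1.38 with an SE of 0.70 and was not called (adjusted p = 0.124), and the lines differed by -4.15 (SE 0.82, adjusted p = 8.12e-06). COL11A1, which takes part in fibril nucleation in cartilage, rose in HCT116 (3.28, SE 0.83, adjusted p = 0.000507) and stood at 0.29 (SE 0.36) in RPE-1. COL27A1 also rose in HCT116, by 0.98 (SE 0.21, adjusted p = 4.24e-05). COL11A2 rose in both lines, at 0.97 (SE 0.24) in RPE-1 and 0.87 (SE 0.21) in HCT116. In RPE-1, COL5A2 rose by 0.43 (SE 0.12, adjusted p = 0.00121) and COL1A1 by 0.52 (SE 0.19, adjusted p = 0.0172). COL1A1 and COL1A2 code for the chains of collagen I. COL1A1 was at -0.03 (SE 0.19) in HCT116 and lost its RPE-1 call with the median of all genes taken out (adjusted p = 0.0510). COL1A2 had a base mean of 10.8 and was called in neither line (1.20, SE 0.70, and 2.05, SE 1.26).

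Fibril-associated collagens decorate fibrils rather than forming them, and 2 of 8 rose in RPE-1 (25%) and 1 in HCT116 (12.5%). Both shares lay below the 27.2% and 21.3% of protein-coding genes with a base mean of at least 10. COL9A3 rose in RPE-1 by 1.85 (SE 0.50, adjusted p = 0.00104), the largest called change of a collagen with a base mean of at least 10 in that line. It was 0.37 (SE 0.18, adjusted p = 0.110) in HCT116. COL16A1 rose in RPE-1 by 1.08 (SE 0.19, adjusted p = 1.53e-07) and was -0.13 (SE 0.23) in HCT116. COL12A1 went the other way, at 0.06 (SE 0.12) in RPE-1 and 0.57 (SE 0.12, adjusted p = 2.23e-05) in HCT116. All 3 genes differed between the lines, COL9A3 by 1.48 (SE 0.53, adjusted p = 0.0275), COL16A1 by 1.21 (SE 0.30, adjusted p = 0.000675) and COL12A1 by -0.51 (SE 0.17, adjusted p = 0.0170).

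Among the remaining collagens, COL7A1 and COL18A1 rose in both lines. COL7A1, the anchoring fibril beneath the epidermis, had log2FCs of 1.07 (SE 0.15, adjusted p = 4.52e-11) in RPE-1 and 0.71 (SE 0.17, adjusted p = 0.000167) in HCT116. COL18A1, the source of endostatin, had 0.52 (SE 0.15) and 0.60 (SE 0.15), and the difference of -0.08 had a 95% interval from -0.50 to 0.34. COL15A1, its relative, rose in HCT116 by 2.64 (SE 0.38, adjusted p = 6.99e-11) at a base mean of 15.5, and the lines differed by -2.14 (SE 0.63, adjusted p = 0.00496). COL13A1, a transmembrane collagen, rose in HCT116 by 0.69 (SE 0.19). COL25A1 was called in RPE-1 (2.10, SE 0.76) at a base mean of 5.75. In collagen VI, which forms beaded filaments near the cell surface, COL6A1 rose in both lines, by 1.08 (SE 0.22, adjusted p = 4.99e-06) and 0.68 (SE 0.22, adjusted p = 0.00764). Its partners COL6A2 (-0.69, SE 0.44, and -0.06, SE 0.18) and COL6A3 (-0.24, SE 0.26, and -0.31, SE 0.26) were not called in RPE-1 or HCT116.

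**Figure D3:**
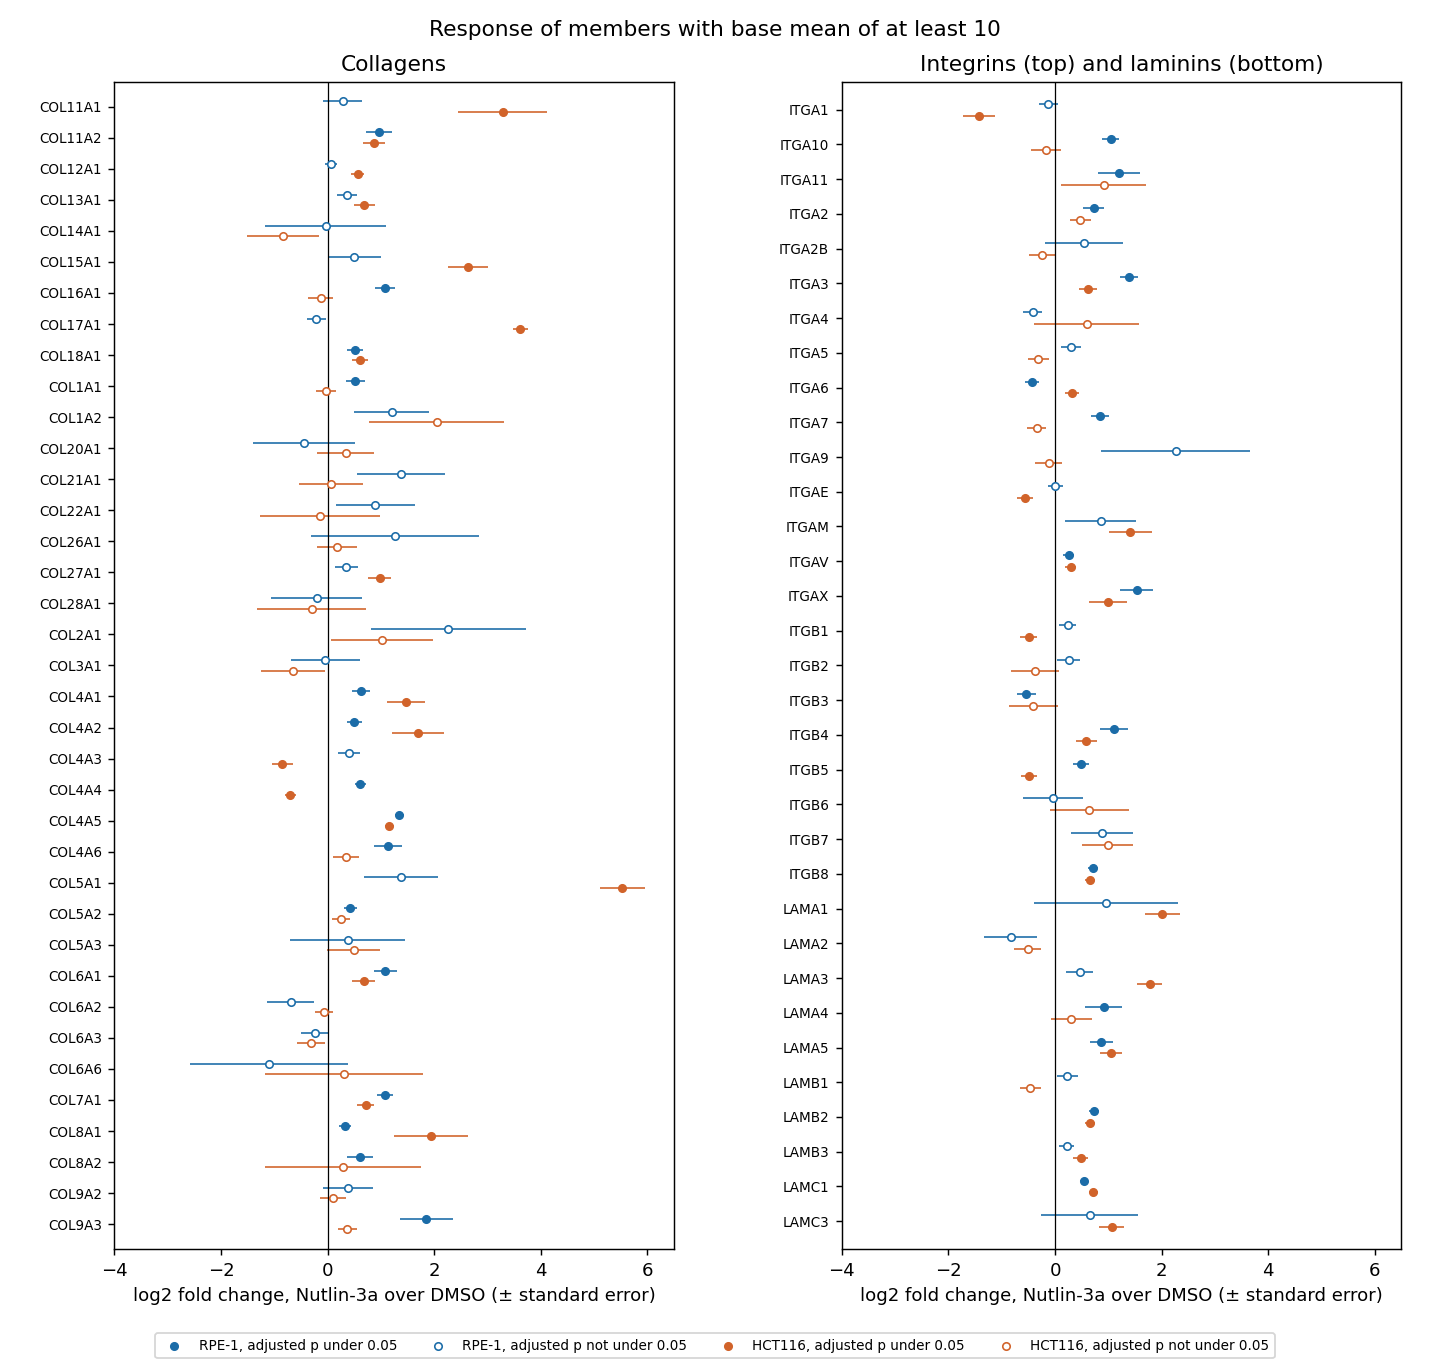
log2FC with 1 SE on each side for 70 members with a base mean of at least 10, in RPE-1 (blue) and HCT116 (orange). Filled points were called. COL5A1, COL17A1, COL11A1 and COL15A1 stand far to the right in HCT116, and wide bars mark members such as COL2A1, COL6A6 and ITGA9.

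Laminins were called higher or not at all, and 11 of the 12 had the same sign in both lines, called or not. The same held for 63.0% of all listed genes with a value other than 0 in both, and for 65.5% of such protein-coding genes with a base mean of at least 10. LAMA5, LAMB2 and LAMC1 make up laminin-521, and they were the 3 laminins called higher in both RPE-1 and HCT116. LAMA5 (ENSG00000130702, chromosome 20, from 62307955 to 62367312), the widespread epithelial α-chain, had log2FCs of 0.87 (SE 0.21, adjusted p = 0.000297) in RPE-1 and 1.05 (SE 0.21, adjusted p = 7e-06) in HCT116. LAMB2 had 0.73 (SE 0.10, adjusted p = 1.21e-12) and 0.66 (SE 0.10, adjusted p = 2.86e-10). LAMC1, the γ-chain of most laminins, had 0.54 (SE 0.08, adjusted p = 4.24e-10) and 0.72 (SE 0.08, adjusted p = 1.13e-16). The differences between the lines had 95% intervals from -0.77 to 0.41 for LAMA5, -0.20 to 0.34 for LAMB2 and -0.40 to 0.05 for LAMC1. LAMB1, the β-chain that replaces LAMB2 in laminin-511, was not called, at 0.23 (SE 0.19) in RPE-1 and -0.47 (SE 0.20, adjusted p = 0.0621) in HCT116. The HCT116 value of LAMB1 passed the threshold as lower when only protein-coding genes or only genes with a base mean of at least 100 were tested, or the median of all genes was taken out.

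Laminin-332, the ligand of hemidesmosomes, contains the chains that LAMA3 and LAMB3 code for. In HCT116, LAMA3 rose by 1.78 (SE 0.24, adjusted p = 8.51e-13) and LAMB3 by 0.48 (SE 0.14, adjusted p = 0.00436). Neither gene was called in RPE-1, where LAMA3 was at 0.46 (SE 0.25) and LAMB3 at 0.22 (SE 0.14). LAMA3 was the 1 laminin whose response differed between the lines, by -1.32 (SE 0.34, adjusted p = 0.00124). LAMA1, the α-chain of the embryonic basement membrane, rose in HCT116 by 2.02 (SE 0.33, adjusted p = 2.36e-08), and its RPE-1 value of 0.96 had an SE of 1.34. LAMC3 rose in HCT116 by 1.06 (SE 0.23, adjusted p = 4.78e-05), and its SE in RPE-1 was 0.90. LAMA4, the endothelial and mesenchymal α-chain, rose in RPE-1 by 0.91 (SE 0.35, adjusted p = 0.0320) and was at 0.31 (SE 0.38) in HCT116. LAMA4 lost its call with the median of all genes taken out (adjusted p = 0.0558). LAMA2, the muscle α-chain, was negative in both lines but not called (-0.83, SE 0.49, and -0.51, SE 0.26).

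Of the 24 integrins, 11 had the same sign in both lines (45.8%). This stood beside 63.0% of all listed genes, 65.5% of protein-coding genes with a base mean of at least 10 and 75% of the collagens. These shares were not compared by a test. Of the 4 collagen-binding α-subunits, 3 rose in RPE-1 (75%) and none rose in HCT116, beside 27.2% and 21.3% of those protein-coding genes. ITGA10, a cartilage collagen receptor, was at 1.05 (SE 0.16, adjusted p = 8.56e-10) in RPE-1 and -0.17 (SE 0.29) in HCT116. ITGA11 was at 1.19 (SE 0.40, adjusted p = 0.00990) and 0.91 (SE 0.80), and ITGA2 at 0.73 (SE 0.20, adjusted p = 0.00117) and 0.48 (SE 0.20, adjusted p = 0.0547). ITGA1, which favours collagen IV, fell in HCT116 with a log2FC of -1.42 (SE 0.30, adjusted p = 1.46e-05), the lowest value of any member in that line, and was -0.12 (SE 0.18) in RPE-1. Differences between the lines were called for ITGA10 (1.22, SE 0.33, adjusted p = 0.00216) and ITGA1 (1.30, SE 0.35, adjusted p = 0.00176), not for ITGA11 (0.28, SE 0.89) or ITGA2 (0.25, SE 0.28).

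All 3 laminin-binding α-subunits differed between the lines. ITGA3 (ENSG00000005884, chromosome 17, from 50055968 to 50090481), a receptor for laminin-332 and laminin-511, had the highest base mean of the members and rose in both lines, by 1.39 (SE 0.17, adjusted p = 1.07e-14) in RPE-1 and 0.62 (SE 0.17, adjusted p = 0.00183) in HCT116. The larger response in RPE-1 passed the test, with a difference of 0.77 (SE 0.24, adjusted p = 0.0102). ITGA7, best known from muscle, rose in RPE-1 by 0.84 (SE 0.16, adjusted p = 2.33e-06) and was -0.35 (SE 0.18, adjusted p = 0.144) in HCT116. ITGA6, the α-subunit of the hemidesmosome integrin α6β4, fell in RPE-1, at -0.44 (SE 0.13, adjusted p = 0.00360). It was called higher in HCT116, at 0.33 (SE 0.13, adjusted p = 0.0462), a call that was lost with the median of all genes taken out (adjusted p = 0.160). The lines differed by -0.76 (SE 0.18, adjusted p = 0.000418) for ITGA6 and by 1.19 (SE 0.24, adjusted p = 1.54e-05) for ITGA7. The partner of ITGA6, ITGB4, rose in both, by 1.11 (SE 0.25, adjusted p = 8.56e-05) in RPE-1 and 0.59 (SE 0.19, adjusted p = 0.0114) in HCT116.

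Of the 8 β-subunits, 3 rose and 1 fell in RPE-1 (37.5% and 12.5%), and 2 rose and 2 fell in HCT116 (25% each). Among protein-coding genes with a base mean of at least 10, 27.2% rose and 18.8% fell in RPE-1, and 21.3% and 17.8% in HCT116. ITGB1, the partner of most matrix-binding α-subunits, fell in HCT116, at -0.49 (SE 0.16, adjusted p = 0.00996), and was 0.24 (SE 0.16) in RPE-1. ITGB5, which pairs with ITGAV to bind vitronectin, rose in RPE-1 by 0.49 (SE 0.15, adjusted p = 0.00430) and fell in HCT116, at -0.49 (SE 0.15, adjusted p = 0.00634). Both differed between the lines, ITGB1 by 0.73 (SE 0.23, adjusted p = 0.00827) and ITGB5 by 0.98 (SE 0.21, adjusted p = 6.16e-05). ITGB8, which pairs with ITGAV to activate latent TGFβ, had nearly equal values of 0.71 (SE 0.10, adjusted p = 1.96e-12) and 0.66 (SE 0.10, adjusted p = 1.48e-10), with a 95% interval of the difference from -0.21 to 0.33. ITGB3, the β-subunit of the platelet receptor, fell in RPE-1, at -0.54 (SE 0.18, adjusted p = 0.00872), and its HCT116 value of -0.41 had an SE of 0.45.

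ITGAV, the α-subunit that ITGB5 and ITGB8 share, rose by 0.26 (SE 0.11, adjusted p = 0.0456) in RPE-1 and 0.30 (SE 0.11, adjusted p = 0.0255) in HCT116. Neither ITGAV call held with the median of all genes taken out (adjusted p = 0.201 and 0.130). The fibronectin receptor subunit ITGA5 was called in neither line (0.30, SE 0.19, and -0.31, SE 0.19). Among subunits best known from leukocytes, ITGAX rose in both lines (1.53, SE 0.31, adjusted p = 5.16e-06, and 0.998, SE 0.36, adjusted p = 0.0234). ITGAM rose in HCT116 (1.42, SE 0.41, adjusted p = 0.00309) at a base mean of 20.4. ITGAE, the receptor for E-cadherin, fell in HCT116 (-0.56, SE 0.15, adjusted p = 0.00152) and was 0.01 (SE 0.13) in RPE-1, with a difference between the lines of 0.57 (SE 0.20, adjusted p = 0.0287).

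The lines were compared directly by testing the difference of the log2FCs, RPE-1 minus HCT116, for the 20764 genes with a base mean of at least 10. Of the 71 members tested, 11 responded more positively in RPE-1 and 7 more positively in HCT116. The background was 11.3% and 10.4% over all genes tested, and 14.1% and 12.7% over the protein-coding ones. Collagens had 4 differences with the higher value in RPE-1 and 5 with the higher value in HCT116, laminins 0 and 1, and integrins 7 and 1. The median difference was 0.10 for collagens, -0.18 for laminins and 0.53 for integrins, against 0 over all genes tested. The 5 collagens higher in HCT116 ranged from -4.15 for COL5A1 to -0.51 for COL12A1, and the 7 integrins higher in RPE-1 from 0.57 for ITGAE to 1.30 for ITGA1.

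**Figure D4:**
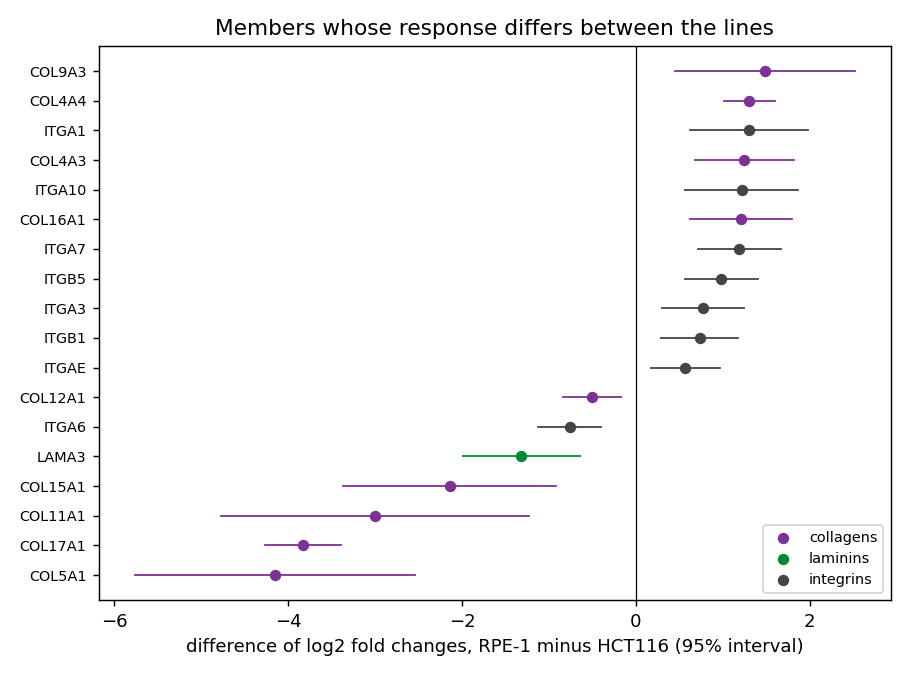
Difference of the log2FCs, RPE-1 minus HCT116, with its 95% interval, for the 18 members called at an adjusted p under 0.05. The members were chosen by this call, so no interval crosses 0. Integrins (grey) sit mostly to the right of 0. COL5A1, COL17A1, COL11A1, COL15A1 and COL12A1 (purple), LAMA3 (green) and ITGA6 (grey) lie to the left.

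Joint calls gave 16 members higher in both lines, namely 8 collagens, 3 laminins and 5 integrins. This was 21.1% of the members, beside 7.23% of all listed genes and 10.9% of protein-coding genes with a base mean of at least 10. No member was lower in both, beside 6.48% and 9.59% in these backgrounds. COL4A4, ITGB5 and ITGA6 were called in opposite directions (3.95%, beside 2.05% and 3.32%). Another 12 (15.8%) were called higher in RPE-1 and not called in HCT116, beside 10.8% and 14.2%. As many were called higher in HCT116 and not in RPE-1, beside 6.83% and 9.02%. Neither line had a call for 28 members (36.8%, beside 55.8% and 38.8%). A call in 1 line alone does not show a difference: of those 24, COL9A3, COL16A1, ITGA7 and ITGA10 and, on the HCT116 side, COL5A1, COL11A1, COL12A1, COL15A1, COL17A1 and LAMA3 passed the test between the lines. Across the 71 members, the log2FCs of the lines had a Pearson's r of 0.235 and a Spearman's rho of 0.365. Over all 20764 genes r was 0.508 and rho 0.370. The values were 0.178 and 0.224 for 37 collagens, 0.652 and 0.627 for 11 laminins and 0.354 and 0.508 for 23 integrins. These correlations are across genes, which share libraries and are not independent replicates.

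**Figure D5:**
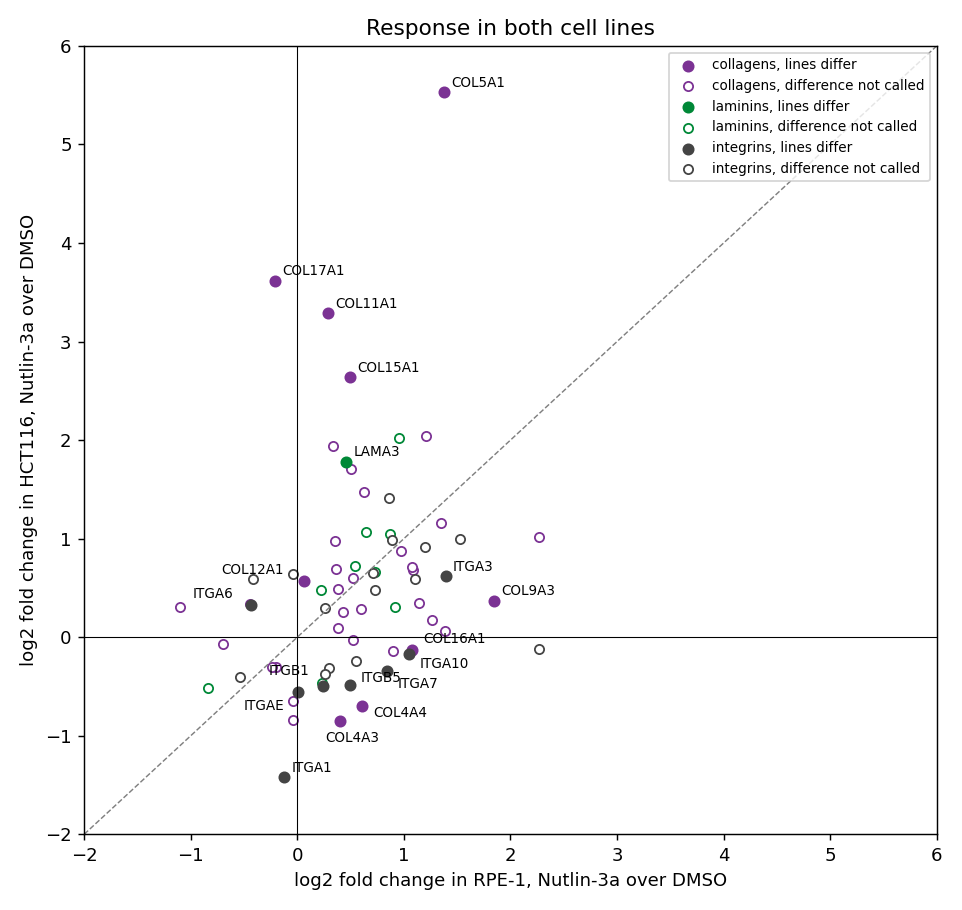
log2FC in RPE-1 (horizontal axis) against HCT116 (vertical axis) for 70 members with a base mean of at least 10, coloured by family. Filled points are members whose response differed between the lines, the dashed line marks equal responses, and COL5A1, at 1.38 and 5.53, lies farthest above it.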

How the data were processed

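The 12 RNA-seq libraries were grouped by cell line and treatment from the labels, 3 per group. The labels describe ribosomal RNA depletion and adaptors with molecular identifiers, the methods poly(A) selection. The submitters' processing notes name bcl2fastq 2.20.0.422, Trimmomatic 0.39, cutadapt 3.3, FastQC 0.11.9, SAMtools 1.12, featureCounts 2.0.1 and DESeq2 1.32.0, on hg38. The deposited tables hold the authors' DESeq2 comparisons of Nutlin-3a with DMSO and no values per library, so no model was refitted. The deposited log2 columns give the size of the change and its standard error. A deposited p-value column has a Benjamini-Hochberg adjusted one beside it, which a recomputation over all listed genes matched. The deposited score is the fold change divided by its standard error, and the deposited signal is the base mean of normalised counts. The methods call the RPE-1 replicates biological, and nothing says so for HCT116, whose p-values may measure technical spread.

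The difference between the lines was tested against the combined standard error of both log2FCs (squares added), with a two-sided normal p and Benjamini-Hochberg adjustment over genes with a base mean of at least 10. The test was checked on simulated data with noise drawn from the deposited standard errors, independently for each line. That check cannot show whether those standard errors are right for these libraries. Members, gene lists and tests were chosen with earlier results of these data known. Genes were named if they were among the 5 largest called changes in each direction per family and line or between the lines, or belonged to a listed assembly; others are named to fill a class and were chosen after their values were seen. The values of 1 member are not reported here, although it is counted. Coordinates came from GENCODE 44 and promoter windows from RefSeq, both on GRCh38. Alternatives were stricter limits on base mean, log2 value and adjusted p, protein-coding genes alone, the median of all genes taken out and standard errors multiplied by 1.5. Computation used scipy 1.17.1, pandas 2.3.3 and numpy 2.4.6 under Python 3.11.15, and plots matplotlib 3.10.9.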

Additional observations from a re-analysis of the deposited data

Results flagged for a closer look

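For 18 members the lines differed in their response by the test of the difference itself, at an adjusted p under 0.05 over 20764 genes. Of the members tested, 15.5% had the higher value in RPE-1 and 9.86% in HCT116. The background was 11.3% and 10.4% over all genes tested, and 14.1% and 12.7% over the protein-coding ones. The members thus lay near the protein-coding background. The value was higher in HCT116 for COL5A1 (-4.15 on the log2 scale, RPE-1 minus HCT116), COL17A1 (-3.83), COL11A1 (-2.999), COL15A1 (-2.14), LAMA3 (-1.32), ITGA6 (-0.76) and COL12A1 (-0.51). It was higher in RPE-1 for COL9A3 (1.48), COL4A4 (1.31), ITGA1 (1.30), COL4A3 (1.25), ITGA10 (1.22), COL16A1 (1.21), ITGA7 (1.19), ITGB5 (0.98), ITGA3 (0.77), ITGB1 (0.73) and ITGAE (0.57).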

How the results depend on the processing

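No paired analysis was possible because the values analysed are comparisons that combine the replicates, and leaving out each replicate was not run for the same reason. Of 135 recomputed counts and medians, 105 stayed within 1.5 times the reported count or moved by less than the median SE of the family. Some of these could not move. The median difference of all genes tested was 0, so taking it out left the differences as they were. In each line, the shift by the median of all genes was smaller than every family's median SE, and the medians over all listed members were the reported ones. Called values of single members were recomputed 497 times, and 114 lost their call. The limit of 1 on the absolute log2 value accounted for 47 of these losses and larger standard errors (1.5 times) for 45. An adjusted p under 0.01 accounted for 15, and removal of the median of all genes for 7. No value changed sign, but none could, so this says nothing of robustness. The alternatives kept each log2 value or shifted it by that median, which was 0.08 in each line. The smallest called value was 0.26, for ITGAV in RPE-1. With an absolute log2 value of at least 1, RPE-1 had 7 collagens, 0 laminins and 5 integrins higher and 0 integrins lower. HCT116 then had 8 collagens higher and 0 lower, 4 laminins higher, and 1 integrin higher and 1 lower, and the difference held 3 integrins with the higher value in RPE-1 and 0 with the lower. With standard errors multiplied by 1.5, RPE-1 had 7 collagens and 6 integrins higher and 0 integrins lower, and HCT116 had 9 collagens and 1 integrin higher and 1 integrin lower. The difference then held 1 collagen and 2 integrins higher in RPE-1, and 2 collagens, 0 laminins and 0 integrins lower. At an adjusted p under 0.01, 3 integrins were higher in HCT116. In HCT116, 1 laminin, LAMB1, was lower with the median of all genes taken out, with a base mean of at least 100, and among protein-coding genes, and LAMB1 also gave 1 laminin with a called difference under the last 2 limits. With a base mean of at least 100, 1 collagen was lower in HCT116, and the integrin median in RPE-1 was 0.28. Depth is unknown, and the standard errors alone limit what could be detected.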

Other observations

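Genes that work beside the members were also counted. Among protein-coding genes with a base mean of at least 10, 27.2% rose and 18.8% fell in RPE-1. In HCT116, 21.3% of these rose and 17.8% fell. Of 10 other basement membrane and matrix genes, 7 rose and 1 fell in RPE-1 (70% and 10%). In HCT116, 4 rose and 1 fell (40% and 10%). HSPG2, which codes for perlecan, rose in both lines (log2FC 1.27, SE 0.26, and 1.95, SE 0.26), as did AGRN, which codes for agrin (1.02, SE 0.16, and 1.37, SE 0.16). NID1, which links laminin to collagen IV, fell in RPE-1 (-0.77, SE 0.18) and rose in HCT116 (3.58, SE 0.64), a difference of -4.34 (SE 0.67). SPARC, a collagen-binding matrix protein, rose in RPE-1 (0.41, SE 0.11) and fell in HCT116 (-0.87, SE 0.13), a difference of 1.29 (SE 0.17).

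Of 16 collagen-modifying enzymes and chaperones, 8 rose and 0 fell in RPE-1 (50% and 0%). In HCT116, 5 rose and 4 fell (31.25% and 25%). The difference was called for 9 of the 16, 8 with the higher value in RPE-1 (50%, beside 14.1% of protein-coding genes). ADAMTS2, a procollagen protease, and P4HA2, a prolyl hydroxylase subunit, led in RPE-1 (1.19, SE 0.18, and 1.19, SE 0.05). In HCT116 the lysyl oxidase LOXL4 rose (2.14, SE 0.23), as did the procollagen protease BMP1 (0.92, SE 0.14), while P4HA3 (-1.29, SE 0.30) and LOXL2 (-0.88, SE 0.15) fell. Of 11 metalloproteinases and inhibitors, 4 rose in RPE-1 (36.4%), led by MMP2 (1.27, SE 0.17) and TIMP1 (1.11, SE 0.40). In HCT116, 3 rose and 1 fell (27.3% and 9.09%), with MMP14 at 1.72 (SE 0.12), MMP2 at 1.69 (SE 0.50) and MMP15 at -0.33 (SE 0.12). Of 16 genes of the integrin adhesion complex, 9 rose and 0 fell in RPE-1 (56.25% and 0%), with TNS1 (1.17, SE 0.33) and ZYX (0.82, SE 0.31) highest. In HCT116, 4 rose and 3 fell (25% and 18.75%). SRC at 0.51 (SE 0.11) and PARVB at 0.27 (SE 0.08) were among the former, and FERMT2 at -0.53 (SE 0.12) and LIMS1 at -0.32 (SE 0.11) among the latter. These lists were chosen with earlier results of these data known, and the lists were not tested.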
